A study of Mus musculus with 6 samples.

Results

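The 36 genes described here are antiviral genes that cells switch on when interferon binds its receptors. They were taken by name from the deposited table of gene counts, and all 36 were found among its 55401 Ensembl genes. The libraries were made from glomeruli isolated from mice, with 3 libraries labelled Control and 3 labelled DKD, which the series title spells out as diabetic kidney disease. The labels enter Control and DKD under genotype; the sources used here give no strain, sex, age, allele or means of inducing the disease for either group. They also do not say whether each library came from a separate animal or a pool, and p-values then describe library-to-library spread, which may be technical.

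Interferons of type I are secreted by cells that sense foreign or misplaced nucleic acids. Their receptor activates the kinases JAK1 and TYK2, and transcription factors of the STAT and IRF families then bind short promoter elements, the interferon-stimulated response elements, of the genes listed here. The products detect RNA, degrade it, block its translation or trap virus particles, and in the kidney they are known from lupus nephritis and viral infection, where glomerular cells and infiltrating leukocytes both express them.

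Levels are given as CPM, a unit that divides the count of a gene by the library size after TMM scaling, and fold changes are log2 values of DKD over Control with their standard error. Total counts ran from 71154026 to 83576494 per library. Podocyte, endothelial and mesangial markers were present in every library, the slit diaphragm gene Nphs1 lying between 24.8 and 55.6 CPM. The 11 proximal tubule markers, from the segment after the glomerulus, summed to between 9625 and 38581 CPM, so the libraries also held tubule RNA. Control replicate 3 stood apart: its tubule sum was 38581 CPM, against 17848 and 19774 CPM in Control replicates 1 and 2. DKD replicate 3 also differed from its group, at 9625 CPM, against 17173 and 18502 CPM in DKD replicates 1 and 2. Results are also given without Control replicate 3, and calls without each other library are given below. Of 10 podocyte markers 9 had a log2 fold change below 0, and 7 had all DKD libraries below all Control libraries, against 15.2% of all genes tested. All 11 tubule markers were below 0, against 9810 of 19717 genes tested, and 2 of them fell, against 0.431% of all genes tested. Their median was −0.64. Without Control replicate 3 it was −0.32, 10 of 11 were below 0 and 2 fell, against 0.736% of all genes tested.

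As a group the antiviral genes were higher in DKD. The summed level of all 36 was 519, 554 and 265 CPM in Control replicates 1 to 3 and 744, 771 and 835 CPM in DKD replicates 1 to 3, so the groups did not overlap, and the DKD mean was 1.46 times the mean of Control replicates 1 and 2. By gene, 35 of 36 had a log2 fold change above 0, against 50.2% of the 19717 genes tested, and the median was 0.85, against 0.0029 over all genes tested. For 25 of 36 (69.4%) every DKD library lay above every Control library, against 15.5% of all genes, and for 0 did every DKD library lie below, against 15.2%. All 36 passed the filter on low counts. With edgeR's quasi-likelihood test and Benjamini-Hochberg adjustment over all genes, 4 of 36 (11.1%) rose and 0 fell, against 0.725% and 0.431% of all genes tested. These 4 were Oas2, Oasl1 and Oas1a, of the oligoadenylate synthetase family, and Ifi27. With p under 0.05 before adjustment, 20 were higher and 0 lower, against 11.8% and 10.9% of all genes.

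**Figure D1:**
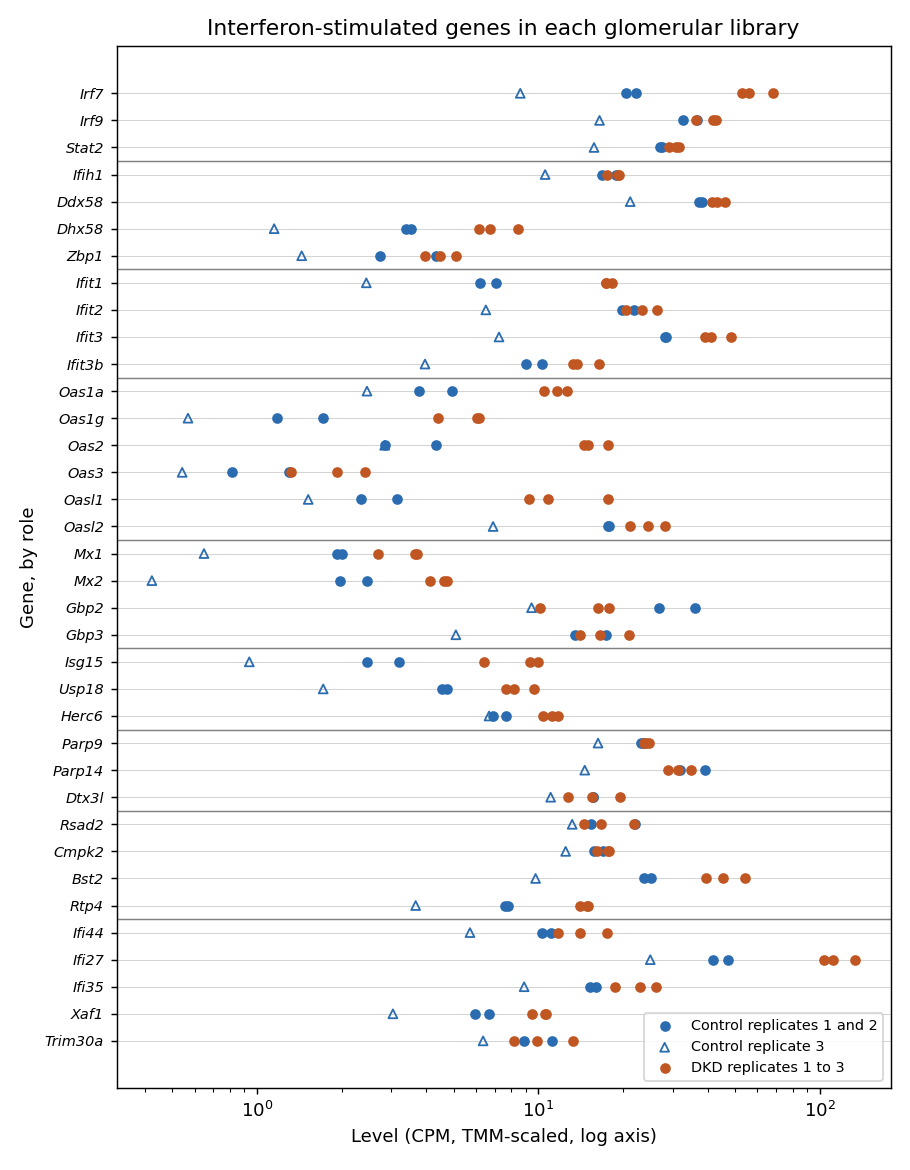
Level of each of the 36 genes in each library (CPM, log axis), with genes ordered by role and horizontal lines between roles; filled blue points are Control replicates 1 and 2, open triangles Control replicate 3 and orange points the 3 DKD libraries. Control replicate 3 is the lowest library for all 36 genes, and for 25 of them all DKD points lie to the right of all Control points.

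Control replicate 3 had the lowest level of all 6 libraries for 36 of 36 genes, whereas it was the lowest for 26.1% of all genes tested. Its level was a median of 0.477 times the mean of Control replicates 1 and 2 over the 36 genes, ranging from 0.191 for Mx2 to 0.918 for Herc6, against a median of 0.980 over all genes tested. Leukocyte markers were low there too. The 27 leukocyte markers summed to 323, 354 and 165 CPM in Control replicates 1 to 3 and 210.2, 447 and 425 CPM in DKD replicates 1 to 3. Unlike the antiviral sum, this sum overlapped between the groups, and DKD replicate 1 had a leukocyte sum below Control replicates 1 and 2 while its antiviral sum was above both. None of the 27 markers passed the edgeR threshold, against 0.725% of all genes tested higher and 0.431% lower. A log2 fold change above 0 was found for 20 of 27, against 50.2% of all genes tested. The median of the 27 was 0.39 (0.14 without Control replicate 3). DKD lay wholly above Control for 1 of 27, against 15.5% of all genes tested. That 1 was the B cell gene Cd79a, measured at 0.562, 0.395 and 0.225 CPM in Control replicates 1 to 3 and 1.21, 1.29 and 3.66 CPM in DKD replicates 1 to 3. The pan-leukocyte gene Ptprc was measured at 17.9, 20.7 and 13.2 CPM in Control replicates 1 to 3 and 11.9, 26.1 and 25.7 CPM in DKD replicates 1 to 3. Plasmacytoid dendritic cells are strong interferon producers, and their defining gene Siglech was at most 0.317 CPM and at 0 in DKD replicate 1. The 8 markers listed for them summed to between 952 and 2154 CPM, nearly all of it from Klk1, a gene that the kidney tubule also expresses and that was singled out after its values were seen. The part of cell content in the results below was not tested, and in bulk RNA more cells of a type and more RNA per cell cannot be told apart.

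Without Control replicate 3, 10 of 36 genes (27.8%) rose and 0 fell, against 1.15% and 0.736% of 20515 genes tested, and the median was 0.59. The 10 were Irf7, Ifit1, Oas1a, Oas1g, Oas2, Oasl1, Isg15, Bst2, Rtp4 and Ifi27. In that fit 33 of 36 lay above 0, against 49.7% of all genes. For the same 25 genes all DKD libraries lay above both remaining Control libraries, against 22.8% of all genes. That count could not change, since Control replicate 3 was the lowest library for all 36 genes. For 1 gene, Gbp2, all DKD libraries lay below, against 24% of all genes. Leaving out any other library ended at least 2 of the 4 calls. Without Control replicate 1, DKD replicate 1 or DKD replicate 3 none of the 36 passed, while 0.00493%, 0.00976% and 0.0294% of all genes rose, and 21, 18 and 14 of the 36 were higher with p under 0.05 before adjustment, against 8.97%, 8.45% and 7.65% of all genes. In that order the adjusted p of Oas2 was 0.0937, 0.0902 and 0.0666, with log2 fold changes of 2.14, 2.15 and 2.30. Without Control replicate 2 Oas2 alone passed (adjusted p 0.0403, 0.0344% of all genes rising), and without DKD replicate 2 Oas2 and Oasl1 passed (0.0401 and 0.0461, 0.885% of all genes rising). Oas2 was also the single call with library totals as the only scaling (0.512% of all genes rising and 0.882% falling) and with no filter on low counts (0.107%). DESeq2 called 15 of 36 (41.7%), all higher, against 7.46% of the 18167 genes for which it gave an adjusted p.

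**Figure D2:**
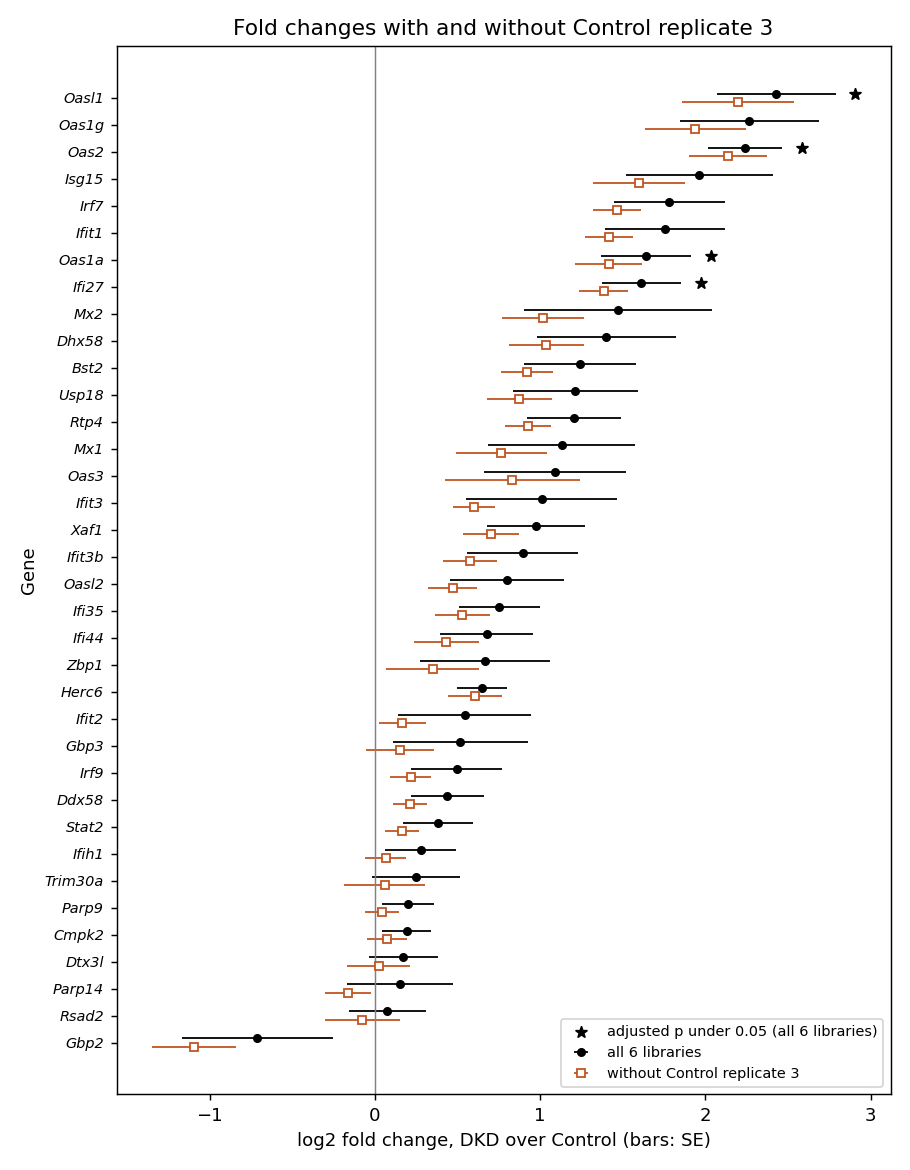
Log2 fold change of DKD over Control for each of the 36 genes, with standard errors, from all 6 libraries (black circles) and without Control replicate 3 (open orange squares); stars mark an adjusted p under 0.05 with all libraries. Oas2, Oasl1, Oas1a and Ifi27 carry stars, and Gbp2 lies at the bottom, at −0.71 and −1.10.

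The oligoadenylate synthetase family, including synthetase-like genes, had the highest median of the 9 role groups, 1.94. The active synthetases of the family respond to double-stranded RNA and make short oligoadenylates that switch on RNase L, which cleaves RNA. All 6 of the family had every DKD library above every Control library, against 15.5% of all genes tested. Of the 6, 3 passed the threshold, all higher, against 0.725% of all genes tested. Oas2 was measured at 2.85, 4.31 and 2.84 CPM in Control replicates 1 to 3 and 17.7, 15.1 and 14.5 CPM in DKD replicates 1 to 3. The lowest DKD library was thus more than 3 times the highest Control library, and the log2 fold change was 2.24 ± 0.22 (4.73-fold, adjusted p 0.0192). Oasl1, whose product restrains translation of Irf7 mRNA in mice, was measured at 3.13, 2.35 and 1.52 CPM in Control replicates 1 to 3 and 10.8, 9.23 and 17.7 CPM in DKD replicates 1 to 3. DKD replicate 3 was the highest, and the log2 fold change was 2.43 ± 0.36 (5.38-fold, adjusted p 0.0370). Oas1a was measured at 3.75, 4.92 and 2.46 CPM in Control replicates 1 to 3 and 11.6, 10.5 and 12.6 CPM in DKD replicates 1 to 3. Its groups were also apart, with 1.64 ± 0.27 and an adjusted p of 0.0456. Oas1g was measured at 1.71, 1.17 and 0.568 CPM in Control replicates 1 to 3 and 6.07, 4.41 and 6.15 CPM in DKD replicates 1 to 3, a similar pattern at a lower level, with 2.26 ± 0.42 and an adjusted p of 0.0560 (0.0378 without Control replicate 3). Reads of these neighbours may be exchanged, since 68.8% of the 31-base words of Oas1a transcripts and 55.1% of those of Oas1g also occur in transcripts of other genes, mostly each other. Oas3 and Oasl2 had smaller values, 1.09 ± 0.43 and 0.80 ± 0.34, with adjusted p of 0.194 and 0.223. The groups of Oas3 were barely apart, at 1.315 CPM in DKD replicate 1 and 1.303 CPM in Control replicate 1.

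Promoter sequence was set beside these values because STAT and IRF factors bind a known element there. RefSeq promoters on build GRCm38.p6 were matched by symbol for 26 of 36 genes, and the 250 bases before each start site were searched on both strands for GAAANNGAAA, the core of the interferon-stimulated response element, which reads TTTCNNTTTC on the other strand. Matches may overlap each other. It was found for 13 of 26 genes (50.0%), against 3.46% of 27025 genes with a promoter (936) and 2.98% of 32851 promoters. Of the 16 genes with a log2 fold change above 1, 9 had a promoter, and it was found for 7 of these 9. Of the 20 others, 17 had a promoter, and it was found for 6 of these 17. The division was made after the values were seen and not tested, and it parts Ifit3 (1.01) from its copy Ifit3b (0.89). A match is a description of these letters, and no match says only that they are not in this window. No promoter was matched for Dhx58, Zbp1, Oas2, Mx1, Mx2, Usp18, Parp9, Parp14, Rtp4 and Ifi27. The windows below run 5′ to 3′ on the strand of the gene, end before the start site, and have the matches in capitals, with up to 25 bases on either side of them. They are shown for the OAS1 pair, for 3 further genes higher in DKD without Control replicate 3, for Ifit3 with its copy, and for 3 genes that passed in none of the fits run.
Oas1a (chr5:120907526-120907570, - strand): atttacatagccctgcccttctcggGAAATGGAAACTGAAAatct
Oas1g (chr5:120887614-120887656, - strand): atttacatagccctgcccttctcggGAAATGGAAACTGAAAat
Isg15 (chr4:156200850-156200921, - strand): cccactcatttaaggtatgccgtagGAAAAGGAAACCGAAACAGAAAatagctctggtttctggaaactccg
Ifit1 (chr19:34640760-34640838, + strand): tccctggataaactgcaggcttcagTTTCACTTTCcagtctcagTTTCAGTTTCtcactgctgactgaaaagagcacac
Bst2 (chr8:71537562-71537627, - strand): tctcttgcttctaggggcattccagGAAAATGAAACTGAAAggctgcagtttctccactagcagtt
Ifit3 (chr19:34583348-34583441, + strand): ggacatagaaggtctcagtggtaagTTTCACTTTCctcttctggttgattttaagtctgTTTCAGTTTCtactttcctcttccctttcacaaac
Ifit3b (chr19:34607744-34607837, + strand): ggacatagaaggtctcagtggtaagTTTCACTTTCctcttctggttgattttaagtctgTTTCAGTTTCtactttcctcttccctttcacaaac
Gbp2 (chr3:142620579-142620638, + strand): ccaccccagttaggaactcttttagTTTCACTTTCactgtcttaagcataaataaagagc
Gbp3 (chr3:142559974-142560039, + strand): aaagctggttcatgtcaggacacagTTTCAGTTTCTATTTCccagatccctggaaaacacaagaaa
Rsad2 (chr12:26456538-26456597, - strand): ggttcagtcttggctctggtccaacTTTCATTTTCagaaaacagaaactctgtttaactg
The Oas1a and Oas1g windows hold the same overlapping pair of matches, and the Ifit3 and Ifit3b windows are identical in every base. The Isg15 window holds 3 overlapping matches. Gbp2 and Rsad2 each hold 1 match.

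Among the transcription factors Irf7 differed most. Irf7 drives interferon genes and is itself induced by interferon. It was measured at 20.5, 22.2 and 8.62 CPM in Control replicates 1 to 3 and 52.8, 55.8 and 68.0 CPM in DKD replicates 1 to 3. The lowest DKD library was more than 2 times the highest Control library, with a log2 fold change of 1.78 ± 0.34 (3.44-fold) and an adjusted p of 0.0567, which was 0.0163 without Control replicate 3 (1.46 ± 0.15). Its partners in signalling were closer between the groups. Stat2 had 0.38 ± 0.21 (adjusted p 0.330) and Irf9 0.49 ± 0.27 (0.334), and without Control replicate 3 these were 0.16 ± 0.10 and 0.22 ± 0.12.

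Of the nucleic acid sensors, Dhx58 had the largest fold change. Dhx58 encodes LGP2, a helicase that modulates the RNA sensors encoded by Ddx58 (also written Rigi) and Ifih1. It averaged 2.69 ± 1.33 CPM in Control and 7.10 ± 1.19 CPM in DKD (mean ± SD, n = 3), its groups did not overlap, and the log2 fold change was 1.40 ± 0.42 (adjusted p 0.121). Ddx58 itself had 0.44 ± 0.22 (0.285), and Ifih1, which overlapped between groups, had 0.28 ± 0.21 (0.487). Zbp1, a sensor of left-handed nucleic acids that can trigger cell death, had 0.67 ± 0.40 (0.363). Without Control replicate 3, Ddx58 and Ifih1 were at 0.21 ± 0.10 and 0.07 ± 0.12, and Dhx58 was at 1.04 ± 0.23.

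The IFIT proteins bind RNA that lacks host marks and hold it back from translation. Ifit1 was measured at 6.19, 7.04 and 2.44 CPM in Control replicates 1 to 3 and 18.3, 17.4 and 17.4 CPM in DKD replicates 1 to 3. The DKD libraries were close together and all above Control, with 1.76 ± 0.36 (3.38-fold, adjusted p 0.0625, and 0.0163 without Control replicate 3). Ifit3 was measured at 28.4, 28.3 and 7.24 CPM in Control replicates 1 to 3 and 41.0, 48.4 and 39.2 CPM in DKD replicates 1 to 3, and its copy Ifit3b at 9.05, 10.3 and 3.95 CPM in Control replicates 1 to 3 and 13.7, 16.4 and 13.2 CPM in DKD replicates 1 to 3. Both had DKD above Control in all libraries, with 1.01 ± 0.46 and 0.89 ± 0.34 and adjusted p of 0.243 and 0.178. The copies share 61.8% and 55.2% of their 31-base words with other genes, so their separate values are uncertain. Ifit2 overlapped between groups, at 0.54 ± 0.40 (adjusted p 0.469), and was at 0.17 ± 0.14 without Control replicate 3.

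ISG15 is a ubiquitin-like protein that is joined to other proteins, in mice by the ligase Herc6, and removed by Usp18, which also dampens the interferon receptor. All 3 genes of this system had DKD wholly above Control, against 15.5% of all genes tested. Isg15 was measured at 2.45, 3.19 and 0.938 CPM in Control replicates 1 to 3 and 9.32, 6.39 and 9.98 CPM in DKD replicates 1 to 3, with 1.96 ± 0.45 (3.90-fold) and an adjusted p of 0.0730 (0.0475 without Control replicate 3). Herc6 was measured at 6.88, 7.66 and 6.67 CPM in Control replicates 1 to 3 and 11.7, 11.2 and 10.4 CPM in DKD replicates 1 to 3. Its Control libraries were the most alike of the 36 genes by the ratio of Control replicate 3 to the others, and its change was smaller, 0.65 ± 0.15 (adjusted p 0.0769). Usp18 averaged 3.66 ± 1.68 CPM in Control and 8.49 ± 1.03 CPM in DKD (mean ± SD, n = 3), with 1.21 ± 0.38 (0.128).

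Per kb of exonic length, Ifi27, Bst2 and Ifit3 had the highest levels of the 36, at 25.9 and 79.2, 21.7 and 51.2 and 12.2 and 24.6 CPM per kb in Control and DKD. Ifi27 encodes a small hydrophobic interferon-induced protein and was the remaining gene past the threshold. It was measured at 41.8, 47.1 and 25.0 CPM in Control replicates 1 to 3 and 111, 104 and 134 CPM in DKD replicates 1 to 3. All DKD libraries were more than 2 times the highest Control library, and the log2 fold change was 1.61 ± 0.24 (3.06-fold, adjusted p 0.0370). Bst2 encodes tetherin, which holds budding virus at the cell surface. It was measured at 25.1, 23.7 and 9.77 CPM in Control replicates 1 to 3 and 45.2, 39.3 and 54.3 CPM in DKD replicates 1 to 3, again with the groups apart, at 1.24 ± 0.34 (adjusted p 0.100, and 0.0465 without Control replicate 3). Rtp4, a chaperone of membrane receptors, was measured at 7.58, 7.77 and 3.66 CPM in Control replicates 1 to 3 and 14.8, 14.0 and 15.0 CPM in DKD replicates 1 to 3. Its DKD libraries were close together, with 1.20 ± 0.29 (adjusted p 0.0787, and 0.0351 without Control replicate 3). Xaf1, which promotes apoptosis, Ifi35 and Ifi44 also had DKD above Control in all libraries, at 0.97 ± 0.30, 0.75 ± 0.24 and 0.68 ± 0.28, with adjusted p of 0.122, 0.136 and 0.209. An antisense model covers 16.8% of the exonic bases of Ifi35, and the use of strand in counting is not stated. Mx1 and Mx2, dynamin-like GTPases that block virus replication, had 1.13 ± 0.45 and 1.47 ± 0.57, with no overlap between groups and adjusted p of 0.194 and 0.187.

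Other members had smaller fold changes. Rsad2, or viperin, makes a nucleotide that stops viral polymerases, and Cmpk2 encodes a mitochondrial nucleotide kinase. Rsad2 had 0.07 ± 0.23 and Cmpk2 0.19 ± 0.15, with overlapping groups and adjusted p of 0.884 and 0.486. Rsad2 turned to −0.08 without Control replicate 3, to −0.12 without DKD replicate 2 and to −0.07 with library totals as the only scaling. Parp9 and Dtx3l, which act as a complex in ADP-ribosylation, had 0.20 ± 0.16 and 0.17 ± 0.21, and 9.40% and 8.00% of their exonic bases overlap each other on opposite strands. Parp9 had all DKD libraries above all Control libraries, but barely, at 23.743 CPM in DKD replicate 2 and 23.733 CPM in Control replicate 2. Without Control replicate 3 Parp9 had 0.04 ± 0.10. Dtx3l overlapped between groups. Parp14, another ADP-ribosyltransferase, had 0.15 ± 0.32, which turned to −0.16 without Control replicate 3 and to −0.02 with library totals. Trim30a, a TRIM family regulator of NF-kB, had 0.25 ± 0.27. Their adjusted p-values lay between 0.502 for Parp9 and 0.820 for Parp14.

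The guanylate-binding proteins Gbp2 and Gbp3 are GTPases that attack vacuoles holding pathogens and respond strongly to interferon gamma. Gbp2 was the single gene of the 36 with a log2 fold change below 0. It was measured at 26.9, 36.1 and 9.45 CPM in Control replicates 1 to 3 and 10.1, 16.3 and 17.8 CPM in DKD replicates 1 to 3. Control replicates 1 and 2 were above all DKD libraries and Control replicate 3 below all of them. The log2 fold change was −0.71 ± 0.46 (adjusted p 0.401), and without Control replicate 3 it was −1.10 ± 0.25 (adjusted p 0.0717, unadjusted p 0.00395). Gbp3 overlapped between groups, at 0.52 ± 0.41 and 0.15 ± 0.21 with and without that library.

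Genes up and downstream of the 36 were taken from lists by role. Of 11 interferon ligand genes, Ifna1, Ifna2, Ifna4, Ifna5, Ifne, Ifnk and Ifnl2 had a count of 0 in all libraries, which allows up to 3 counts, or between 0.0359 and 0.0448 CPM, per library. This limit holds only if 1 count is 1 read. The values 4 and 8 are in excess among the deposited counts, and if these were converted from coverage, which was not tested, the limit is too low. The other 4 were below the filter, the highest being Ifng at up to 0.196 CPM (14 counts). None of 6 receptor genes passed, with a median of 0.29 (0.13 without Control replicate 3). At an unadjusted p under 0.05, 2 were higher and 1 lower, against 11.8% and 10.9% of all genes tested. The receptor chains of type I interferon, Ifnar1 and Ifnar2, were not among these 3, with −0.07 ± 0.11 and 0.03 ± 0.17. The chains for interferon gamma had 0.63 ± 0.19 for Ifngr2 and 0.55 ± 0.20 for Ifngr1, with adjusted p of 0.121 and 0.173. None of 15 JAK-STAT and IRF genes passed, with a median of 0.17 (0.15 without Control replicate 3, 0.03 with library totals). Unadjusted, 3 were higher and 0 lower, against the same shares of all genes. The smallest p were for the phosphatase gene Ptpn2 (0.56 ± 0.14, adjusted p 0.0820) and for Irf3 (0.31 ± 0.11, 0.162). None of 16 genes of upstream sensing passed, with 2 higher and 0 lower unadjusted, against 11.8% and 10.9% of all genes tested. Their median was 0.06, but −0.11 without Control replicate 3, where 10 of 16 lay below 0, −0.05 without DKD replicate 2 or DKD replicate 3, and −0.09 with library totals. The 2 higher genes were the adaptor genes Myd88 (0.49 ± 0.14, 0.103) and Mavs (0.46 ± 0.14, 0.125). Over all these lists and both lists below edgeR called 0 genes and limma-voom 0, whereas DESeq2 called 15, counted in either direction. Over all genes edgeR called 228, limma-voom 204 and DESeq2 2483, the last of 18167 genes with an adjusted p.

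A further 32 interferon-stimulated genes had a median of 0.32, with 0 past the threshold and 26 above 0, against 50.2% of all genes tested. Before adjustment 9 were higher and 0 lower, against 11.8% and 10.9% of all genes tested. The smallest p were for Phf11d (0.89 ± 0.16, adjusted p 0.0560) and for the exonuclease gene Isg20, which averaged 1.25 ± 0.474 CPM in Control and 4.01 ± 1.27 CPM in DKD (mean ± SD, n = 3), with 1.68 ± 0.39 and an adjusted p of 0.0744. The median was 0.14 without Control replicate 3. For the interferon gamma response 17 of 18 genes were tested, 6 were above 0 and 11 below, and 0 passed. Unadjusted, 3 were higher and 1 lower, against the same shares of all genes. The median was −0.15, −0.53 without Control replicate 3 and 0.08 without Control replicate 2. Cxcl10, a chemokine induced by both kinds of interferon, was measured at 12.4, 14.6 and 4.33 CPM in Control replicates 1 to 3 and 32.4, 33.9 and 34.5 CPM in DKD replicates 1 to 3. The groups were apart, with 1.69 ± 0.40 (adjusted p 0.0769, and 0.0163 without Control replicate 3). The adhesion gene Icam1 had 1.08 ± 0.36 (0.142). Tgtp1, a GTPase of the same response that was singled out after its values were seen, was measured at 42.8, 58.6 and 13.3 CPM in Control replicates 1 to 3 and 13.7, 16.8 and 17.0 CPM in DKD replicates 1 to 3. Like Gbp2 it was high in Control replicates 1 and 2 and low in Control replicate 3, with −1.27 ± 0.47 (adjusted p 0.169) and −1.68 ± 0.17 (0.0163) without that library. The difference between the lists was not tested.

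**Figure D3:**
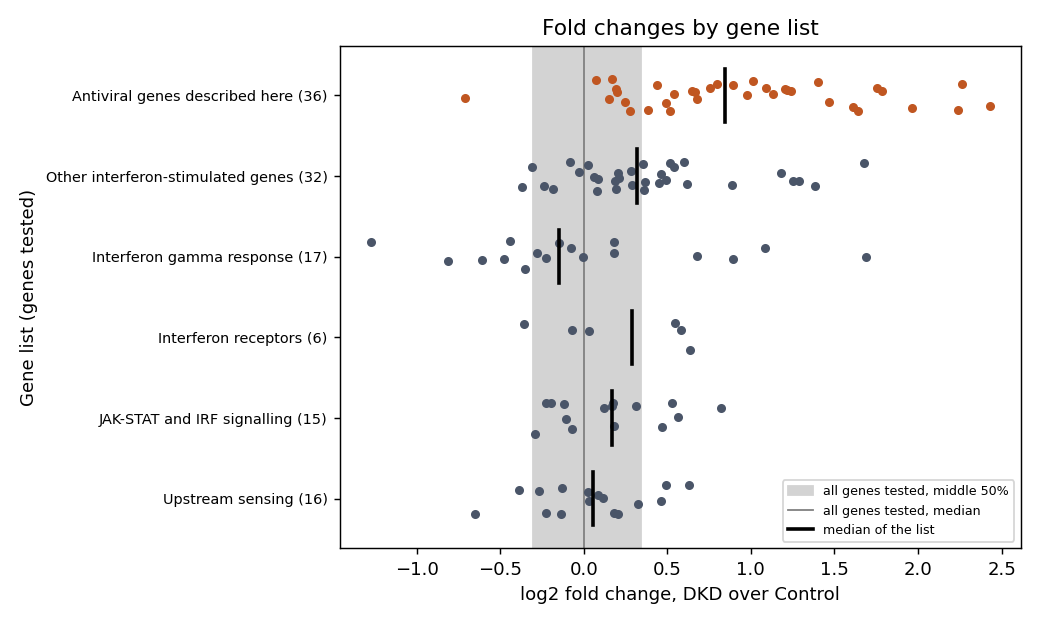
Log2 fold change of DKD over Control for each tested gene (points) of the 36 antiviral genes and of 5 other lists, with the number of genes tested in brackets, the median of each list as a black bar and the middle 50% of all genes tested in grey. The median of the antiviral genes is 0.85 and that of the interferon gamma response −0.15.

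The 32 other interferon-stimulated genes summed to 716, 747 and 522 CPM in Control replicates 1 to 3 and 782, 901 and 980.5 CPM in DKD replicates 1 to 3, with the groups apart. Lgals3bp, singled out after its values were seen, made up 83.5, 92.1 and 37.0 CPM of the Control sums and 142, 161 and 215 CPM of the DKD sums. The mean over the genes of log2 CPM, with 1 added, overlapped between the groups. It was 3.873, 3.915 and 3.256 in Control replicates 1 to 3 and 3.870, 4.106 and 4.202 in DKD replicates 1 to 3. The interferon gamma response summed to 338, 424 and 164 CPM in Control replicates 1 to 3 and 289, 302 and 381 CPM in DKD replicates 1 to 3, with the groups overlapping. Endothelial markers summed to 821, 730.2 and 542 CPM in Control replicates 1 to 3 and 398, 644 and 587 CPM in DKD replicates 1 to 3, lower in DKD replicate 1 than in any other library. By gene, 10 of 11 endothelial and 7 of 8 mesangial markers had a log2 fold change below 0, against 9810 of 19717 genes tested. Their medians were −0.44 and −0.25, and −0.65 and −0.47 without Control replicate 3.

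**Figure D4:**
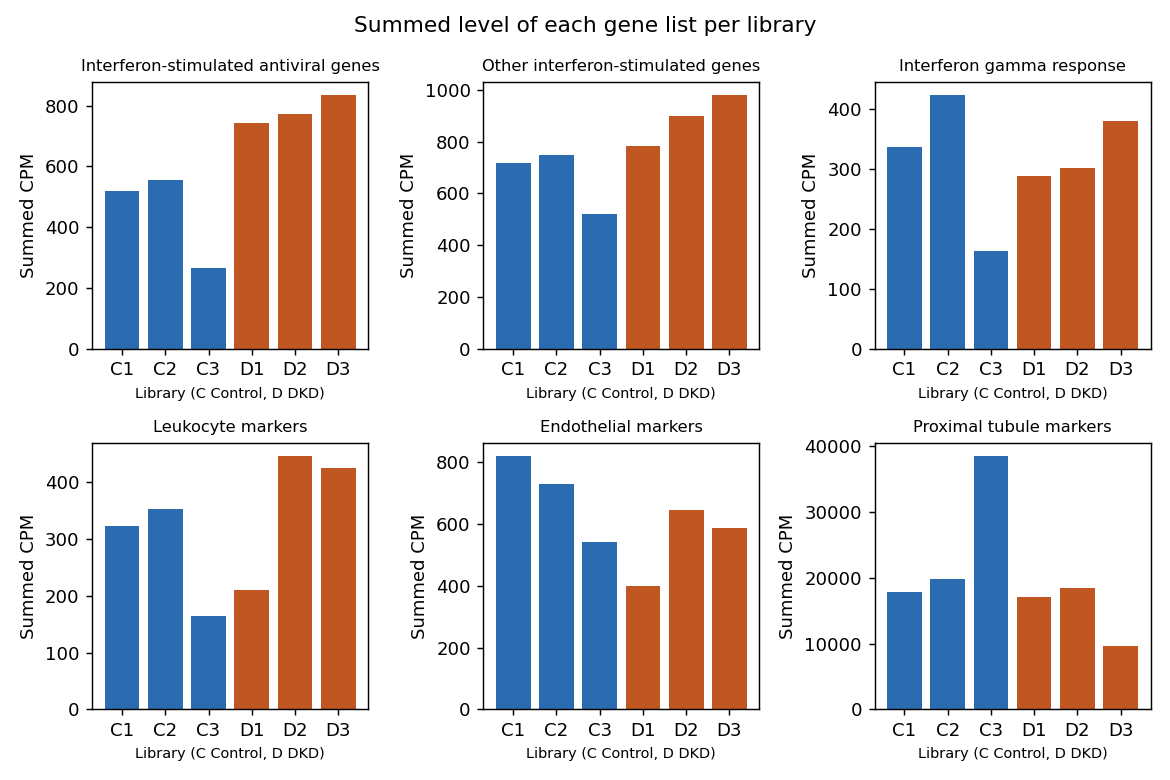
Summed CPM per library (bars, axes from 0) for 6 gene lists, with Control libraries in blue and DKD libraries in orange. Control replicate 3 has the lowest bar in both interferon-stimulated lists, the interferon gamma response and the leukocyte markers and the highest in the proximal tubule markers; the antiviral sum is 744 to 835 CPM in DKD and at most 554 CPM in Control.

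Longer genes had smaller fold changes by rank. Across the 36 genes the Spearman correlation of log2 fold change with exonic length was −0.54, as a description over genes that share libraries, and across 19684 genes it was −0.25. The 16 genes with a log2 fold change above 1 had a median exonic length of 2632 bases, and the other 20 had 4780.5 bases. With a smooth trend on length removed from each library, the median of the 36 was 0.86, against −0.018 over all genes, and 6 rose, against 0.66% of all genes. These were Irf7, Oas1a, Oas1g, Oas2, Oasl1 and Ifi27. Oas2 has 4451 exonic bases and Gbp2 2516.

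**Figure D5:**
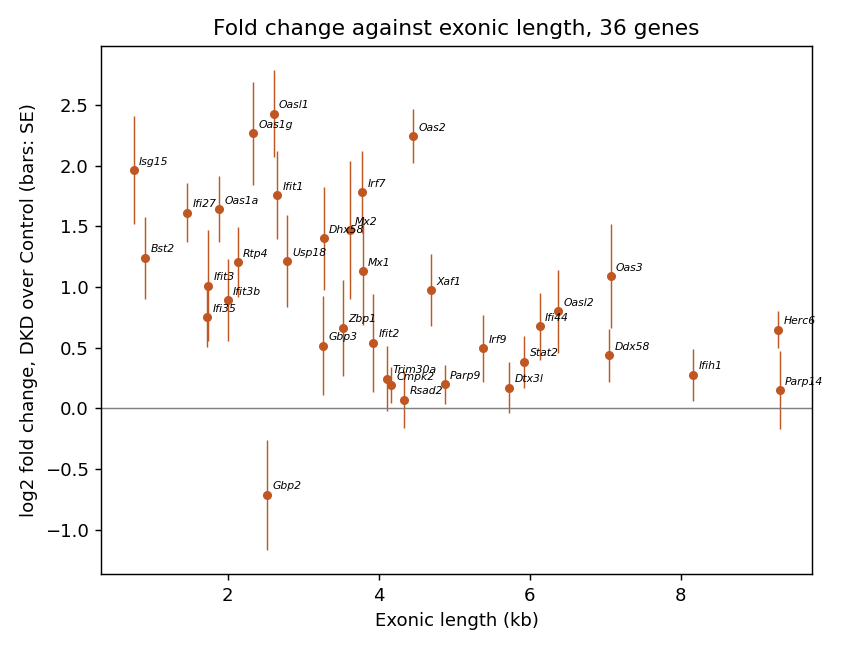
Log2 fold change of DKD over Control (bars: SE) against exonic length in kb for the 36 genes, each labelled. Values above 1.5 lie at lengths under 5 kb, and Gbp2 is the single point below 0.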

How the data were processed

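Polyadenylated RNA of mouse glomeruli was sequenced as dUTP libraries in paired reads of 150 bases, per the labels' protocols. The submitters' processing notes name fastp, HISAT2, StringTie, edgeR and build GRCm39, while versions, annotation and strand setting were not given in the sources used here for these libraries. The deposited values, made by the authors, are unnormalized counts for each Ensembl gene in each library. The value 4 occurred 6267 times, against 3129 for 3 and 1993 for 5, and the value 8 occurred 2929 times. The counts may therefore be coverage converted to reads, which was not tested, and 1 count may not be 1 read.

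Symbols matched 55141 of 55401 identifiers. Exonic length, overlaps and 31-base words came from GENCODE M21 on GRCm38, the preceding build, so gene positions are not printed; promoter positions are those of RefSeq on GRCm38.p6.

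Genes were kept by filterByExpr (minimum count 10), which left 19717, normalized by TMM and compared by quasi-likelihood F-test (edgeR 4.0.16, R 4.3.3), group being the only term, with an adjusted p under 0.05 as the threshold. The standard error is the log2 fold change divided by the square root of F. The biological coefficient of variation was 33.2%. Log CPM correlated at 0.954 to 0.980 within groups, and no library repeated another. The procedure was also run on simulated data, whose settings and outcome are not reported here, so no error rate is drawn from them.

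The 36 genes and all lists were chosen with earlier results of these data known. Values in every library are given for genes past the threshold, the 10 with the smallest p, the 3 with the highest level per length and both pairs of copies; of other lists, genes past the threshold or otherwise the 2 with the smallest p are named. Alternatives were RLE and upper quartile factors, library totals, 2 other filters, DESeq2 1.42.0, voom of limma 3.58.1, a robust dispersion, a block on the replicate number and each library left out. The single values of 1 listed gene are not reported here. The length trend (5 degrees of freedom) was added after seeing the data.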

Additional observations from a re-analysis of the deposited data

How the results depend on the processing

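The median log2 fold change of the 36 genes stayed between 0.59 and 1.07 over the 16 alternatives run, both ends coming from leaving out a Control library, and 33 to 35 genes lay above 0 wherever it was computed. The number of them past the threshold, all higher, was 4 with all libraries, 0 to 10 with 1 library left out, 15 with DESeq2, 1 with library totals and 1 with no filter on low counts. Over all genes 228 passed, 1 to 386 with 1 library left out, 2483 with DESeq2, 516 with a filter of at least 1 CPM in 3 libraries and 56 with no filter. Library totals gave 101 higher and 174 lower, against 143 and 85, and moved the median of all genes to −0.13. In the other interferon lists 0 genes passed, 0 to 2 with 1 library left out, 15 with DESeq2 and 1 with the filter at 1 CPM. Directions turned for Parp14 (−0.021 with library totals, −0.16 to 0.45 with 1 library left out, lowest without Control replicate 3) and Rsad2 (−0.069 with library totals, −0.12 to 0.31 with 1 library left out, below 0 without Control replicate 3 or DKD replicate 2), neither of them past the threshold in any fit; the cause was not tested.

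With the replicate number as a block, 0 of the 36 and 0 of all genes passed, and the adjusted p of Oas2 was 0.133. Deviations of same-numbered libraries correlated at −0.18, 0.066 and −0.22, and 1 of 6 libraries correlated best with its own number. With 3 libraries per group these values cannot decide whether the numbers pair the libraries.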
